A study of Homo sapiens with 6 samples.

Results

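The transcripts of 31 genes of the nuclear pore complex were examined in C666-1 cells, an Epstein-Barr virus-positive line grown from a human nasopharyngeal carcinoma. The members were taken by gene symbol from the deposited expression table, which held all 31 among its 16407 genes. Cells were kept for 24 h in 1 of 2 media, with 3 libraries each. Both media were built on minimal essential medium without its non-essential amino acids, with 10% dialyzed fetal bovine serum, a streptomycin mixture and 4.5 g/L glucose. The complete medium also held 0.4 mmol/L serine and 0.4 mmol/L glycine, while the deprived medium held neither. A single cell line was used. Whether each library had its own culture is not stated, and p-values here cover library-to-library spread only, part or all of which may be technical.

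The nuclear pore complex is the large ring-shaped channel that spans the nuclear envelope and carries proteins and RNA between nucleus and cytoplasm. Its outer and inner rings form a scaffold, membrane-spanning subunits anchor that scaffold, and subunits rich in phenylalanine-glycine repeats fill the channel and bind passing transport receptors. Filaments on the cytoplasmic side release exported mRNA and end the Ran cycle, and a basket on the nuclear side receives cargo. Pores are built both as the envelope re-forms after mitosis and during interphase, so growing cells need a supply of these subunits.

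The libraries held 16612196 to 17030355 estimated counts. The epithelial markers KRT8, KRT18, KRT19 and EPCAM had mean levels of 595, 1155, 96.7 and 10.8 TPM (a share of the library's transcripts, corrected for their length), while CDH1, KRT5 and KRT14 were each at 0.34 TPM or less in every library. Of the markers of other cell types, PTPRC of white blood cells reached at most 0.05 TPM, and the endothelial list summed to at most 1.49 TPM. The fibroblast list summed to 14.4 to 18.3 TPM in complete and 13.5 to 19.0 TPM in deprived libraries, with COL3A1 the highest at a mean of 9.72 TPM. The summed white blood cell list was at 69.8 to 79.0 TPM in complete medium and 50.8 to 59.0 TPM in deprived medium, nearly all of it CD68, a lysosomal membrane protein gene. The part of that difference in the results below was not tested. In both media the library numbered 1 stood apart from the other 2, with a chi-square per gene against its replicates of 9.09 to 19.2, compared with 4.13 and 2.75 between libraries 2 and 3 of each medium.

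Of the 31 members, 2 were lower and 0 were higher in deprived than in complete medium. The test was edgeR's quasi-likelihood fit, with p-values adjusted by Benjamini-Hochberg over all 12548 genes tested and a call at 0.05. Those that fell were NUP37, of the outer ring, and NUP54, of the central channel. All 31 passed the filter on low counts, with 356 to 10097 counts per library. The members' share of calls was 6.45%. It was close to the 6.95% of all genes tested that were called (4.22% lower and 2.73% higher). The number of calls at this threshold thus does not set the pore genes apart. At an unadjusted edgeR p under 0.05, 10 of the 31 members were lower and 1 was higher. Among all genes 14.4% were lower and 12.9% higher, 27.3% together. The members' share was thus larger for falls and smaller for rises, a lean that was not tested. DESeq2 called 3 members lower and 0 higher, adding AAAS, beside 10.9% of all genes. Limma voom called 2 lower and 0 higher, beside 6.85%. In these bulk libraries, fewer cells of one kind and less RNA per cell cannot be told apart.

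The number of calls varied with how the libraries were used. Taking the replicate number that both media share as a block, 7 members were lower and 1 was higher, 25.8% of the members, where 24.3% of all genes were called. Leaving out both libraries numbered 1 was added as a setting once the data had been seen. It gave 10 lower and 2 higher members, 38.7% of the members beside 29% of all genes. Without replicate 1 of complete medium, 8 members were lower and 0 higher, 25.8% beside 10.4% of all genes, with 1 higher and 11 lower at an unadjusted p under 0.05, where 30.2% of all genes passed. Without replicate 1 of deprived medium, 3 were lower and 0 higher, 9.68% beside 13.7% of all genes, with 3 higher and 8 lower at an unadjusted p under 0.05, where 30.7% of all genes passed. Without replicate 2 or 3 of either medium, edgeR called 0 members and 0% of all genes. At an unadjusted p under 0.05, 0 members were higher and 4 or 5 lower without replicate 2 or 3 of complete medium, where 17.1% and 19.7% of all genes passed. Without replicate 2 or 3 of deprived medium 1 was higher and 5 or 8 lower, where 22.5% and 20.7% of all genes passed.

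Under other scalings edgeR called 2 or 3 members and limma none. NUP37 and NUP54 were the members called when libraries were scaled by DESeq2 size factors (beside 6.97% of all genes) or by their totals (7.04%). With no filter on low counts AAAS was added (3 members, beside 6.61%). Limma called 0 members on log2(FPKM + 0.1), log2(FPKM + 1) and log2(TPM + 1), beside 2.84%, 2.71% and 0.932% of all genes. At an unadjusted p under 0.05 limma had 2 members higher and 5 lower on either FPKM scale, where 26.1% of all genes passed, and 5 higher and 4 lower on the TPM scale, where 25.6% did.

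**Figure D1:**
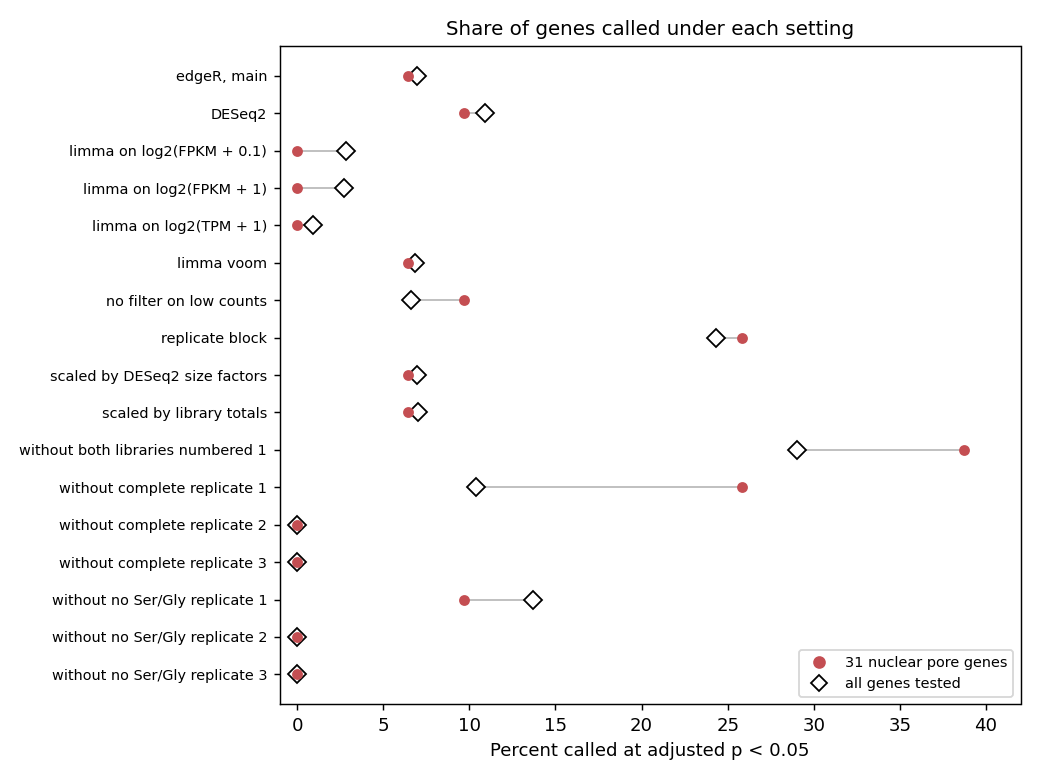
Percent of the 31 nuclear pore genes (red points) and of all genes tested (open diamonds) called at an adjusted p under 0.05 under each setting, with edgeR unless another tool is named. The main setting gives 6.45% of members and 6.95% of all genes, and across settings the shares run from 0% to 38.7% of members and from 0% to 29% of all genes.

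Sizes were small. The median log2 fold change, given throughout as deprived relative to complete medium, was -0.042 over the 31 members and -0.00070 over all genes tested. The median absolute log2 change was 0.13 for the members and 0.14 for all genes. Of the members, 58.1% had a negative sign, beside 50.2% of all genes. For all 29 members that were not called, the 95% interval of the change lay within 1.5-fold in either direction. CPM values (counts scaled by library size, with no correction for length) of the 2 media did not overlap for 13 members, 10 of them lower and 3 higher in deprived medium. That is 41.9% of the members, beside 32.6% of all genes tested (16.4% of all genes lower and 16.1% higher). Without both libraries numbered 1, which leaves 2 libraries a medium, 22 members and 67.2% of all genes did not overlap.

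**Figure D2:**
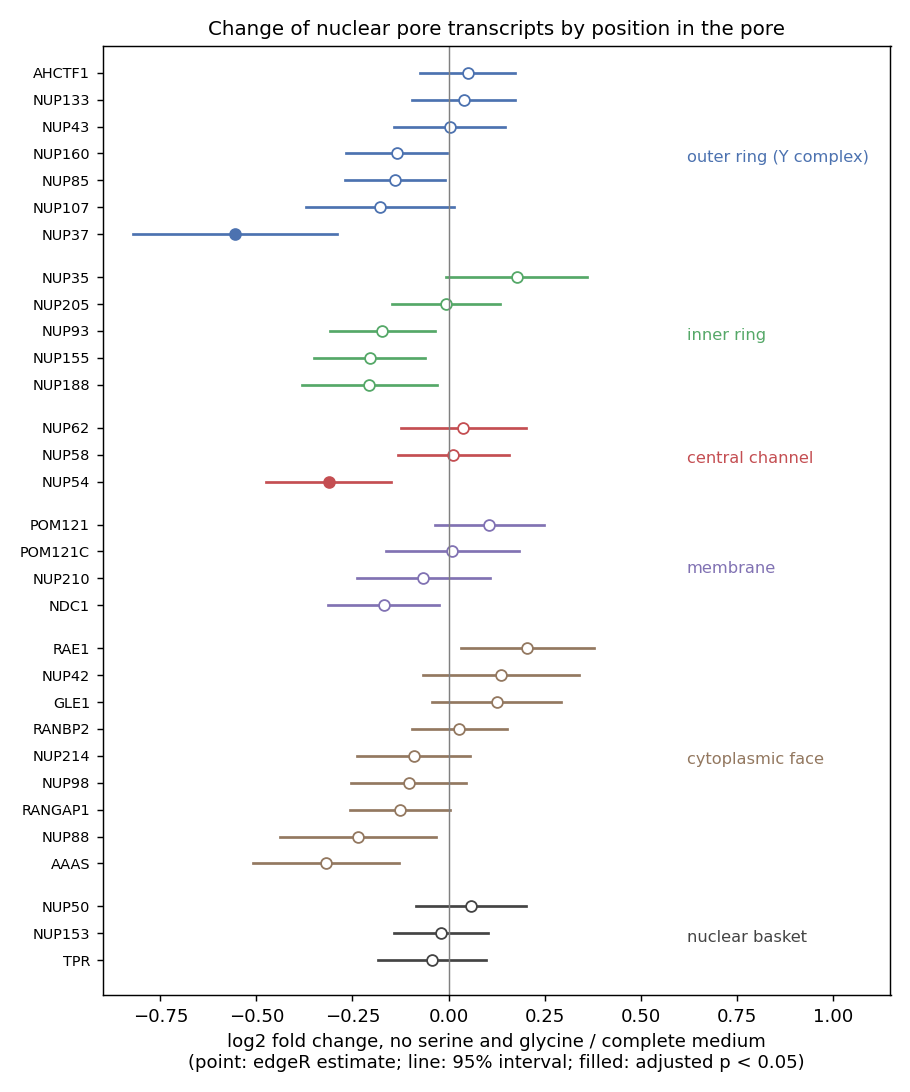
Log2 fold change of each of the 31 members, deprived relative to complete medium, grouped by position in the pore. Points are edgeR estimates, lines are 95% intervals and filled points passed an adjusted p under 0.05, which only NUP37 and NUP54 did.

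The outer ring is built of Y-shaped complexes that form the scaffold on both faces of the pore. Of its 7 members, 1 fell and the others were not called, with a median log2 change of -0.14. NUP37, a propeller-shaped subunit that binds NUP160 (chromosome 12, 102073103 to 102120114, GRCh38; NCBI Gene 79023), was at 52.7, 71.9 and 59.7 CPM in the complete libraries 1 to 3. It was at 36.6, 44.9 and 43.9 CPM in the deprived libraries 1 to 3. Every deprived library was thus below every complete one, and library 1 was the lowest in each medium. The means were 61.4 ± 9.72 and 41.8 ± 4.54 CPM (SD, n = 3), and NUP37 fell by 31.9% in the edgeR fit. The log2 change was -0.56 (SE 0.119, 95% interval -0.82 to -0.29, edgeR adjusted p = 0.0305). Over 16 alternatives the adjusted p ran from 0.000214 to 0.128 and 9 kept the call. It was lost without replicate 2 or 3 of complete medium (0.128 and 0.103), without replicate 2 or 3 of deprived medium (0.0771 and 0.0970), and by limma on log2(FPKM + 1), log2(FPKM + 0.1) and log2(TPM + 1) (0.0526, 0.0514 and 0.0547).

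NUP37 starts back to back with another gene. PARPBP, which codes for a PARP1-binding protein that restrains homologous recombination, begins 61 bases away on the other strand in GENCODE. It was named after its values were seen. PARPBP was at 41.3, 41.4 and 43.0 CPM in the complete libraries and 47.4, 49.1 and 48.4 CPM in the deprived ones, so its deprived libraries were all above the complete ones. Its log2 change was 0.21 (SE 0.065), and it was not called by edgeR, DESeq2 or limma voom (adjusted p = 0.0783, 0.128 and 0.0790). It passed by edgeR with the replicate block (adjusted p = 0.0307) and without both libraries numbered 1 (0.0380). The ratio of NUP37 to PARPBP in CPM was 1.28, 1.73 and 1.39 in complete and 0.771, 0.914 and 0.908 in deprived libraries. NUP37 and PARPBP differed in sign, as did NUP188 with DOLK and TPR with ODR4, described further below. The bases before the NUP37 start that are shown next reach past the start of PARPBP into that gene. Opposite-strand exons cover 1.72% of the exonic bases of NUP37.

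The 250 bases before the annotated start of NUP37 (minus strand, GRCh38.p14, chr12:102120115-102120364) and of NUP54 (minus strand, chr4:76148398-76148647) follow, from RefSeq, 5′ to 3′, for the members that fell. Capitals mark the CCAAT box and the ETS motif, on either strand.
NUP37: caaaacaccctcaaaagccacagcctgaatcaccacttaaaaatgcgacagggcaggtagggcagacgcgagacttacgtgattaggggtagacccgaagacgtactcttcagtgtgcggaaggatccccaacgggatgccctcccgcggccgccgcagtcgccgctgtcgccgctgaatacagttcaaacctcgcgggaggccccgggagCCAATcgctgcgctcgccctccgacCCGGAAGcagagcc
NUP54: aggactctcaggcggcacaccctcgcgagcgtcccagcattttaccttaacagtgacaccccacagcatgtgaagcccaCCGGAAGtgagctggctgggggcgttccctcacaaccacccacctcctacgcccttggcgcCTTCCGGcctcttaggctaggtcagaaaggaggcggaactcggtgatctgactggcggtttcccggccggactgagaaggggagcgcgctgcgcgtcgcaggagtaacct

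Both windows held the ETS motif CCGGAAG, which is bound by the ETS family of transcription factors. In NUP37 it began 14 bases before the start and a CCAAT box began 39 bases before it. In NUP54 the ETS motif began 171 and 110 bases before the start. RefSeq windows were found for 28 of the 31 members, 36 windows in all. The ETS motif lay in windows of 11 members, 30.6% of member windows, compared with 8.52% of all 35116 windows and 10.7% of the 22199 windows of protein-coding genes. Of these 11 members, NUP37 and NUP54 were called and the other 9 were not. Median GC content was 62.8% in member windows and 62% in those of protein-coding genes.

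Other motifs were searched in the same windows, on both strands, and none overlapped another in the sequences shown. The CCAAT box (CCAAT) was in 36.1% of member windows and 32.7% of protein-coding windows, and the GC box (GGGCGG) in 44.4% and 53.7%. The core of the NRF1 motif (GCATGCG) was in windows of 3 members, NUP107, NUP62 and NUP50, 8.33% beside 4.07%. An E2F motif (TTTNGCGC) was found for NUP107 alone, 2.78% beside 1.88%. The amino acid response element (TGATGNAA), the kind of site bound by ATF4, was found for NUP153 alone, 2.78% beside 2.35%. A match describes the letters only.

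The other outer ring members were not called. SEC13, a Y complex subunit that is not among the members, was lower (log2 change -0.26, edgeR adjusted p = 0.0350) and is described further below. NUP107, NUP160 and NUP85 had log2 changes of -0.18, -0.14 and -0.14 (edgeR adjusted p = 0.215, 0.174 and 0.159). NUP160 and NUP85, like NUP37, were lower at an unadjusted edgeR p under 0.05, where 14.4% of all genes were lower. NUP160 ran from 243 to 263 CPM in complete and 224.5 to 234 CPM in deprived libraries. NUP85 ran from 82.4 to 85.1 CPM in complete and 74.3 to 78.6 CPM in deprived libraries, so neither overlapped between media. Without both libraries numbered 1, where 29% of all genes were called, NUP107 and NUP160 passed the test as lower (edgeR adjusted p = 0.00240 and 0.0176). Of 16 alternatives, 2 called NUP107 and 1 called NUP160. NUP133, at the stem of the Y, NUP43, which sits on NUP85, and AHCTF1, the chromatin-binding subunit that starts pore assembly after mitosis, had log2 changes of 0.040, 0.0028 and 0.049. Their edgeR adjusted p was 0.707, 0.984 and 0.60. The interval for NUP43 was -0.14 to 0.15 on the log2 scale. NUP43 turned negative, at -0.042, without both libraries numbered 1.

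The inner ring lines the channel and joins the scaffold to the membrane. Of its 5 members, 0 were called by edgeR, DESeq2 or limma voom. With the replicate block, where 24.3% of all genes were called, NUP93 and NUP155 were lower. At an unadjusted edgeR p under 0.05, NUP93, NUP155 and NUP188 were lower and 0 were higher. Of all genes, 14.4% were lower and 12.9% higher there. NUP155, a linker between the ring and the membrane, was at 179, 207 and 193 CPM in complete libraries 1 to 3 and at 170, 167 and 164 CPM in deprived libraries 1 to 3. The media did not overlap, and the complete library 1 lay closest to the deprived ones. Its means were 193 ± 13.7 and 167 ± 2.90 CPM (SD, n = 3), a log2 change of -0.20 (SE 0.065, edgeR adjusted p = 0.0804, 0.0231 with the replicate block and 0.00158 without both libraries numbered 1). NUP155 was called in 3 of 16 alternatives.

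NUP93, which ties the inner ring to the channel subunits, had a log2 change of -0.17 (edgeR adjusted p = 0.107, 0.0271 with the replicate block and 0.00499 without both libraries numbered 1). NUP188, a large scaffold partner of NUP93, had one of -0.21 (edgeR adjusted p = 0.127, and 0.00235 without both libraries numbered 1). NUP205, the related scaffold partner that takes the equivalent place, had one of -0.0069 (interval -0.15 to 0.13, edgeR adjusted p = 0.958), which was positive at 0.020 when libraries were scaled by their totals. NUP188 and NUP205 were not tested against each other. Among 16 alternatives, 3 called NUP93 and 2 called NUP188. NUP35, the small subunit that bends toward the membrane, was the member with the fewest counts. It was at 23.2, 23.8 and 21.4 CPM in complete and 26.5, 24.5 and 26.3 CPM in deprived libraries, without overlap, a log2 change of 0.18 (edgeR adjusted p = 0.195).

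The central channel is lined by a trio that carries phenylalanine-glycine repeats, of which 1 fell. NUP54 (NCBI Gene 53371, chromosome 4, 76114664 to 76148397) was at 38.1, 42.8 and 39.8 CPM in complete libraries and at 32.9, 32.2 and 32.2 CPM in deprived libraries. The deprived libraries lay close together and all below the complete ones. The means were 40.2 ± 2.41 and 32.4 ± 0.387 CPM (SD, n = 3), and NUP54 fell by 19.4% in the fit. The log2 change was -0.31 (SE 0.073, interval -0.47 to -0.15, edgeR adjusted p = 0.0367). The adjusted p ran from 0.00284 to 0.167 over 16 alternatives, of which 9 kept the call. The settings that lost it were those that ended the call on NUP37, with 0.167 and 0.123 without replicate 2 or 3 of complete medium, 0.113 and 0.122 without replicate 2 or 3 of deprived medium, and 0.0577, 0.0562 and 0.0821 by limma on log2(FPKM + 1), log2(FPKM + 0.1) and log2(TPM + 1). No 50-base stretch of its longest coding transcript occurs in another gene of GENCODE.

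The partners of NUP54 in the trio did not pass the test. NUP62, the best known repeat subunit, had a log2 change of 0.038 (interval -0.12 to 0.20, edgeR adjusted p = 0.773), and NUP58 one of 0.012 (interval -0.13 to 0.16, edgeR adjusted p = 0.928). NUP62 ran from 74.5 to 84.7 CPM in complete and 76.9 to 86.0 CPM in deprived libraries, and NUP58 from 77.7 to 86.2 and 81.4 to 86.5 CPM. Both pairs of ranges overlap. The differences between NUP54 and its partners were not tested.

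**Figure D3:**
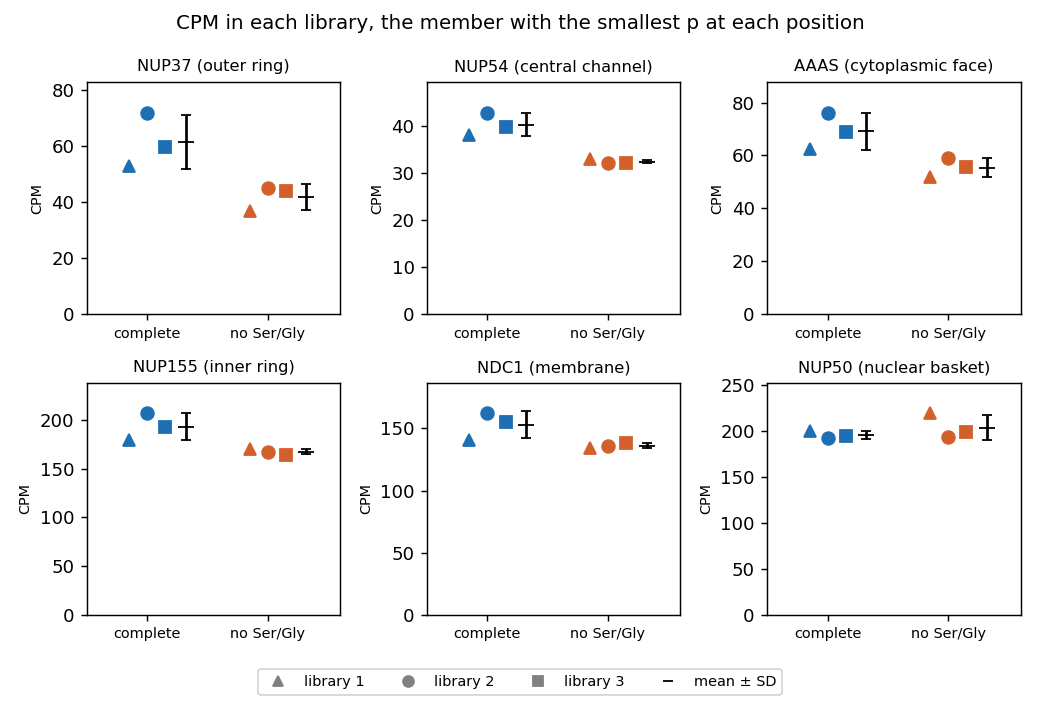
CPM in each library for the member with the smallest p at each position of the pore, by medium, with the symbol giving the library number and the bar the mean ± SD of 3 libraries. NUP37, NUP54, AAAS, NUP155 and NDC1 do not overlap between media, while NUP50 does.

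Membrane subunits hold the pore in the envelope, and 0 of 4 were called by edgeR, DESeq2 or limma voom. At an unadjusted edgeR p under 0.05, 1 was lower, where 14.4% of all genes were lower. NDC1, which spans the membrane and recruits inner ring subunits and AAAS, was at 141, 162 and 155 CPM in complete and 134, 136 and 138 CPM in deprived libraries. All deprived values were below the complete ones, a log2 change of -0.17 (SE 0.065, edgeR adjusted p = 0.129, 0.0409 with the replicate block and 0.00719 without both libraries numbered 1). NDC1 was called in 3 of 16 alternatives. NUP210, a glycoprotein that rings the pore inside the envelope, was at 406 CPM in deprived library 1 and between 472 and 487 CPM in the other 5 libraries. Its log2 change was -0.066 (edgeR adjusted p = 0.619), and 0.0055 without both libraries numbered 1.

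POM121 and POM121C are near-identical genes on chromosome 7 whose products anchor the scaffold. Of the 50-base stretches of the longest coding transcript, 35.0% in POM121 and 63.3% in POM121C occur in another gene, the paralog first among them, so the division of reads between them is uncertain. POM121 was at 178, 173 and 179 CPM in complete and 176, 193 and 202 CPM in deprived libraries. POM121C was at 88.2, 86.0 and 101 CPM in complete and 85.9, 94.9 and 96.2 CPM in deprived libraries. Ranges overlapped for both, with log2 changes of 0.11 and 0.0094 (edgeR adjusted p = 0.310 and 0.952). Without both libraries numbered 1, where 29% of all genes were called, POM121 was higher (edgeR adjusted p = 0.0230). This was the only 1 of 16 alternatives that called it.

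The cytoplasmic face carries mRNA export factors and the filaments that end the Ran cycle. Of its 9 members, 0 were called by edgeR or limma voom and 1, AAAS, by DESeq2. At an unadjusted edgeR p under 0.05 AAAS and NUP88 were lower and RAE1 higher, where 14.4% of all genes were lower and 12.9% higher. AAAS, a propeller protein held at the pore by NDC1 (NCBI Gene 8086, chromosome 12, 53307460 to 53321610), was at 62.4, 76.2 and 68.9 CPM in complete libraries. It was at 51.7, 58.9 and 55.6 CPM in deprived libraries, all of them below the complete ones. The log2 change was -0.32 (SE 0.086, interval -0.51 to -0.13), beside -0.31 for NUP54, with an edgeR adjusted p of 0.0514. It passed with the replicate block (0.00438), by DESeq2 (0.0259), with no filter on low counts (0.0365), without replicate 1 of complete medium (0.0281) and without both libraries numbered 1 (0.00180), and over 16 alternatives ran from 0.00180 to 0.203.

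The other members with an unadjusted p under 0.05 at this face were NUP88 and RAE1. NUP88, which docks with NUP214, had a log2 change of -0.24 (edgeR adjusted p = 0.130, 0.00973 with the replicate block and 0.00320 without both libraries numbered 1). RAE1, the export factor that binds NUP98, was at 66.1, 61.1 and 59.7 CPM in complete and 78.8, 68.5 and 68.0 CPM in deprived libraries. Its media did not overlap, and library 1 was the highest in each. Its log2 change was 0.21 (SE 0.078, edgeR adjusted p = 0.125, 0.0238 with the replicate block and 0.0431 without both libraries numbered 1). Among 16 alternatives, 3 called NUP88 and 2 called RAE1. GLE1, which activates the helicase that strips proteins from exported mRNA, and NUP42, its partner, had log2 changes of 0.13 and 0.14 (edgeR adjusted p = 0.307 and 0.363).

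The remaining members of the same face were not called. NUP98, whose precursor is cut into the repeat protein NUP98 and the Y complex subunit NUP96, was at 574, 563 and 606 CPM in complete and 513, 543 and 565 CPM in deprived libraries. The highest deprived library lay just above the lowest complete one, a log2 change of -0.10 (edgeR adjusted p = 0.347). NUP214, RANBP2 and RANGAP1 had log2 changes of -0.091, 0.028 and -0.13 (edgeR adjusted p = 0.400, 0.781 and 0.197). RANBP2 is the main filament protein, and RANGAP1, which it holds at the pore, makes Ran hydrolyse its GTP. RANGAP1 ran from 318 to 323 CPM in complete and 283 to 304 CPM in deprived libraries, without overlap.

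The nuclear basket gave the smallest range of estimates, from -0.042 to 0.059 on the log2 scale over 3 members, with 0 called by edgeR, DESeq2 or limma voom and 0 at an unadjusted p under 0.05. TPR, the coiled-coil strut of the basket, had a log2 change of -0.042 (edgeR adjusted p = 0.704), and NUP153, which anchors it, one of -0.020 (interval -0.14 to 0.10, edgeR adjusted p = 0.856). NUP50, a cofactor that helps release import cargo, was at 200, 192 and 194 CPM in complete and 219, 193 and 198 CPM in deprived libraries. These ranges overlap, with library 1 the highest in each medium, and the log2 change was 0.059 (SE 0.064, edgeR adjusted p = 0.589). TPR and NUP153 turned positive, at 0.012 and 0.035, by limma on log2(TPM + 1), and NUP153 also with scaling by library totals, at 0.00676.

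Levels were compared between members in TPM, the scale that accounts for length. The mean over 6 libraries ran from 20.8 TPM for NUP214 to 236 TPM for NUP98, an 11.3-fold range. The median member was at 65.2 TPM, and 30 members were above 23.5 TPM, the median of all genes tested. NUP98 was followed by RANGAP1 at 211, NUP93 at 162 and NUP210 at 133 TPM, and each of these 4 exceeded the next in the order in all 6 libraries. Between NUP205, at 97.1 TPM, and POM121C, at 31.8 TPM, only 1 of the 25 steps, from NUP133 to RANBP2, was separated in the same way. In all, 6 of 30 neighbouring pairs in the order were, including POM121C over NUP214.

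**Figure D4:**
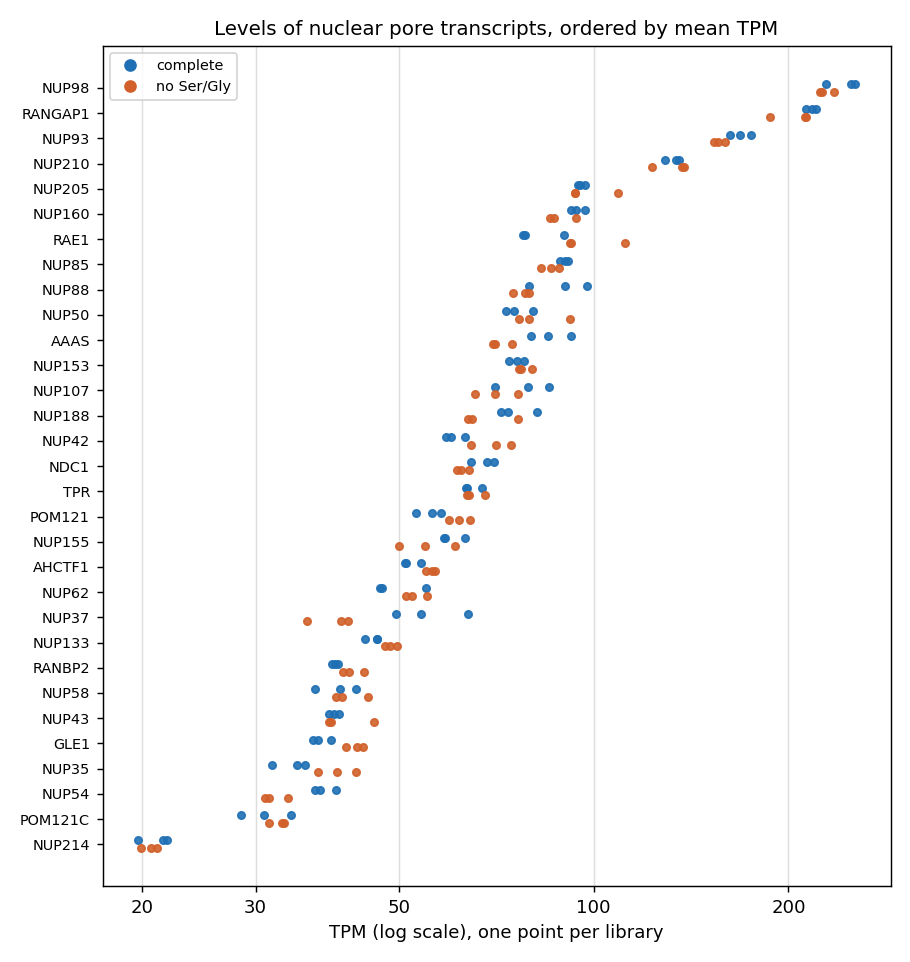
TPM of each member in each library on a log scale, ordered by the mean over 6 libraries, with complete medium in blue and deprived medium in orange. NUP98, RANGAP1, NUP93 and NUP210 stand above the rest, and NUP214 is the lowest.

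Members that sit together in the pore differed in transcript level to unequal degrees. The basket trio lay between 65.0 and 79.6 TPM and the channel trio between 35.2 and 51.3 TPM, ranges of 1.22-fold and 1.46-fold. The 7 outer ring members spanned 2.26-fold, from NUP43 at 40.5 to NUP160 at 91.6 TPM. The 5 inner ring members spanned 4.38-fold, from NUP35 at 37.1 to NUP93 at 162 TPM. The 4 membrane members spanned 4.17-fold and the 9 listed under the cytoplasmic face 11.3-fold, from NUP214 to NUP98. NUP98 also gives the Y complex subunit NUP96, so its level is not that of this face alone. The groups differ in size, and such a span can only widen as members are added. NUP88 and NUP214, which bind each other, were at 83.4 and 20.8 TPM. The summed level of all members was 2394, 2410 and 2397 TPM in complete and 2410, 2295 and 2338 TPM in deprived libraries, so the sums overlapped.

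Read assignment limits some of these values. At least 10% of the 50-base stretches of the longest coding transcript occurred in another gene for 6 members, namely AHCTF1 (48.4%, mainly the pseudogene AHCTF1P1), RANBP2 (26.6%, mainly genes of the RGPD family), NUP62, NUP50 and both POM121 genes. Another 14 members had none. Each RGPD gene was at a mean level of 0.452 to 14.7 TPM, with RGPD6, RGPD8 and RGPD5 the highest at 14.7, 13.1 and 6.02 TPM. RANBP2 was at 41.0 TPM, and how reads were divided between it and this family was not tested. The labels do not give the strandedness of the libraries, and opposite-strand exons covered at least 10% of the exonic bases of NUP62, POM121, NUP42 and NUP88. If strand was not kept, reads of NUP62 and ATF5, and of NUP88 with RPAIN and RABEP1, cannot be told apart where the genes overlap.

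Beyond NUP37, 5 members start within 1000 bases of a protein-coding gene on the other strand. These pairs were NUP43 with PCMT1, NUP188 with DOLK, NUP88 with RPAIN, NUP98 with PGAP2, and TPR with ODR4. The neighbours had log2 changes of 0.021, 0.098, -0.094, -0.15 and 0.081 in that order, and 0 were called by edgeR, DESeq2 or limma voom, with the smallest edgeR adjusted p at 0.186 and 0 at an unadjusted p under 0.05. Signs of member and neighbour matched for NUP43, NUP88 and NUP98.

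Other genes of nuclear transport and of the nuclear envelope were read in the same way. In 6 lists with 74 tested genes, 8 were lower and 1 was higher by edgeR, 12.2% beside the 6.95% of all genes, with a median log2 change of -0.042. With the replicate block 16 were lower and 5 higher, 28.4% beside 24.3% of all genes. Without both libraries numbered 1 these counts were 20 and 8, 37.8% beside 29%. Among 6 tested pore-associated proteins outside the 31, SEC13, a Y complex subunit shared with the coat of vesicles that leave the endoplasmic reticulum, fell from 155 ± 7.45 to 130 ± 3.28 CPM (SD, n = 3). Its log2 change was -0.26 (edgeR adjusted p = 0.0350), and SEH1L, another Y complex subunit, had one of -0.011 (edgeR adjusted p = 0.934).

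Carriers that ferry cargo through the pore were mostly not called. Of 17 tested importins, 2 were lower and the others were not called, and IPO4, an importer of histones and ribosomal proteins, fell from 43.7 ± 1.51 to 30.9 ± 2.05 CPM (SD, n = 3), a log2 change of -0.50 (edgeR adjusted p = 0.0217). TNPO2, a transportin, fell by 0.27 on the log2 scale (edgeR adjusted p = 0.0428, and 0.0501 with scaling by library totals). With the replicate block, where 24.3% of all genes were called, 3 importins were lower and 1 higher. Without both libraries numbered 1, where 29% of all genes were called, these counts were 3 and 2. Of 7 exportins, CSE1L, which returns importin alpha to the cytoplasm, fell to between 262 and 295 CPM in the deprived libraries from 317 to 407 CPM in the complete ones, a log2 change of -0.37 (edgeR adjusted p = 0.0425). All 7 exportins had a negative sign, where 50.2% of all genes did, and the other 6 were not called. With the replicate block 3 exportins were lower, and without both libraries numbered 1 there were 4. These stand beside the same 24.3% and 29% of all genes. Of 6 genes of the Ran cycle, RANBP1, a helper of Ran's GTP hydrolysis, fell from 235 ± 16.2 to 186 ± 5.32 CPM (log2 change -0.34, edgeR adjusted p = 0.0246). Without both libraries numbered 1, 3 genes of the Ran cycle were lower, beside 29% of all genes called.

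Of 22 mRNA export genes, 2 were lower and the others were not called. Both belong to the TREX complex that loads export factors on mRNA, THOC6 with a log2 change of -0.61 (edgeR adjusted p = 0.0227) and the helicase DDX39B with one of -0.44 (edgeR adjusted p = 0.0317). With the replicate block 5 mRNA export genes were lower and 1 higher, and without both libraries numbered 1 these counts were 5 and 3. In these 2 settings 24.3% and 29% of all genes were called. Of 16 lamina and envelope genes, 1 was lower and 1 higher, where the replicate block gave 3 and 3, and leaving out both libraries numbered 1 gave 4 and 3. EMD, emerin, fell by 0.27 on the log2 scale (edgeR adjusted p = 0.0430, and 0.0537 without replicate 1 of complete medium). LEMD2, an inner nuclear membrane protein that helps seal the envelope after mitosis, rose from 86.9 ± 12.0 to 126 ± 9.57 CPM (SD, n = 3), a log2 change of 0.54 (edgeR adjusted p = 0.0234). Without replicate 2 or 3 of either medium the 9 called genes of these lists had edgeR adjusted p of 0.0629 to 0.180, and on log2(TPM + 1) limma called 1 of them, THOC6.

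**Figure D5:**
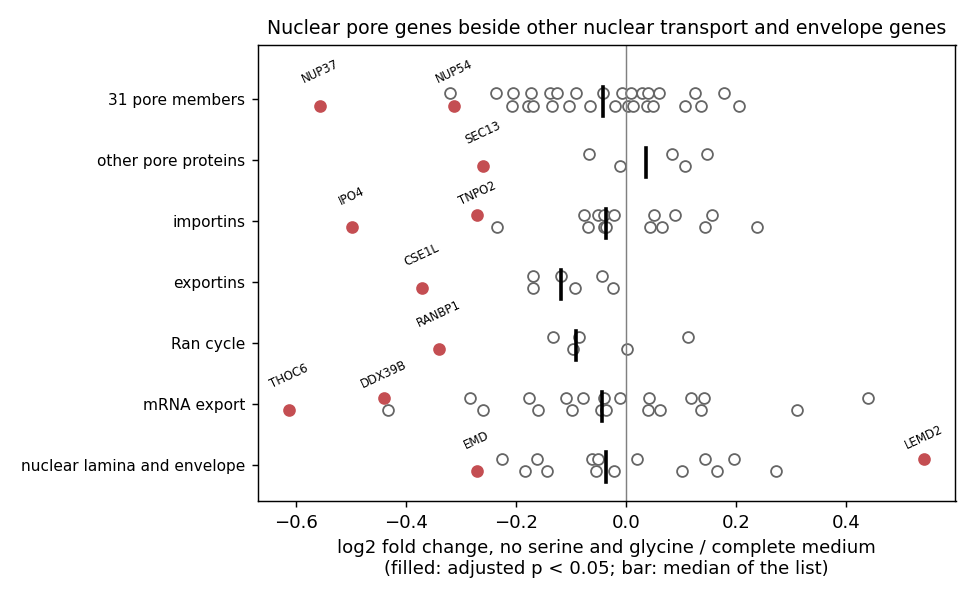
Log2 fold change of the 31 members and of the tested genes of 6 other lists, deprived relative to complete medium, with filled and named points at an adjusted p under 0.05 by edgeR and a bar at each list's median. Of the 11 named genes, LEMD2 alone lies above zero.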

How the data were processed

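RNA was measured in 6 libraries, 3 per medium. The submitters' processing notes name RSEM 1.3.1, Bowtie2 2.3.4.3 and GRCh38 without their roles, and no annotation release is given in the sources. Expected counts per gene were deposited without normalisation, and 15.2 to 16.0% of them per library were fractional. FPKM and TPM values, scaled for transcript length, were also deposited by the authors. After rounding, the expected counts were tested with edgeR 4.0.16 in R 4.3.3 (filterByExpr with a minimum count of 10 and total of 15, TMM factors of 0.978 to 1.025, robust quasi-likelihood fit with medium as the only term, two-sided). P-values were adjusted by Benjamini-Hochberg over 12548 genes. CPM uses TMM-scaled library sizes. The SE is the absolute log2 change over the square root of F, and the 95% interval uses the test's degrees of freedom. DESeq2 1.42.0 and limma 3.58.1 were alternatives, limma on log2 values with a pseudocount of 1 or 0.1 for FPKM and 1 for TPM.

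The members and gene lists were chosen with earlier results of these data known. Values are given for members that were called, for the member with the smallest p at each position, for the extremes in TPM, for both POM121 genes, and for other lists' called genes, up to 4 each. Values of other members in single libraries (NUP35, RAE1 and the ranges given), of PARPBP and of SEH1L, and the promoter motifs, were added after values were seen. Positions and promoter windows come from RefSeq on GRCh38.p14, and overlaps and shared 50-base stretches from GENCODE release 29, in each of which all 31 members were matched for position. On simulated counts for this comparison, over 12548 genes, edgeR found 91 of the 100 genes set to differ 1.5-fold and 99 of the 100 set to differ 2-fold. Its 213 calls included 23 false ones, a larger share than the 0.05 aimed for. Changes under 1.5-fold, the size estimated for the members, were not simulated. No simulated library was set apart as those numbered 1 were. The replicate numbers are shared by both media, and the labels do not say what a shared number marks. The main fit was kept without a block for that reason, although the same-numbered libraries met the correlation set for pairs, as given next. The fit with the block is given beside it. With the block 8 members and 3044 genes were called, compared with 2 and 872 without it. Deviations from the group means correlated at 0.326, 0.141 and 0.190 between same-numbered libraries, each over the minimum of 0.1 for treating the numbers as pairs, although library 3 of complete with library 2 of deprived medium also reached 0.163. Every member had at least 356 counts in every library. How much of the spread of single values is counting error was not tested.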

Additional observations from a re-analysis of the deposited data

How the results depend on the processing

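The settings without 1 library gave 0 to 1737 genes called, 0 to 8 members, 0 to 14 genes of the other lists and a median log2 change of the members of -0.074 to -0.035. With the replicate block these counts were 3044 genes, 8 members and 21 list genes, and, in the setting added later that drops both libraries numbered 1, they were 3643, 12 and 28, with 22 members not overlapping between media, beside 67.2% of all genes. Limma on log2(FPKM + 0.1), log2(FPKM + 1) and log2(TPM + 1) called 356, 340 and 117 genes, 0 members each time and 4, 4 and 1 list genes. On log2(TPM + 1) the members' median was 0.012, and DESeq2 called 14 list genes. The cause was not tested.

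Of the 31 members, 23 kept their sign in all 16 alternatives. The other 8 had a main log2 change of at most 0.066 in size. NUP205 was at 0.019, 0.019 and 0.044 by limma on log2(FPKM + 0.1), log2(FPKM + 1) and log2(TPM + 1), and 0.020 by library totals; NUP153 was at 0.00988, 0.00965, 0.035 and 0.00676 in the same settings. TPR was at 0.012 on log2(TPM + 1). Without both libraries numbered 1, NUP43 was at -0.042 and NUP210 at 0.0055. Leaving out 1 library gave -0.038 to 0.044 for NUP43, -0.056 to 0.020 for NUP205, -0.034 to 0.038 for NUP58, -0.010 to 0.096 for NUP62, -0.11 to 0.010 for NUP210, -0.035 to 0.084 for POM121C, -0.032 to 0.0019 for NUP153 and -0.079 to 0.0034 for TPR. None of these passed the test there.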
